A study of Mus musculus with 10 samples.

Results

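The Wnt system comprises secreted Wnt ligands, their Frizzled receptors and 2 families of secreted inhibitors, and its accessible chromatin was described here in immortalized mouse embryo fibroblasts. The genes were chosen by symbol alone among the protein-coding genes of the mouse genome: 19 Wnt ligand genes, 10 Frizzled genes (Fzd), 4 secreted Frizzled-related protein genes (Sfrp1, Sfrp2, Sfrp4 and Sfrp5) and 4 Dickkopf genes (Dkk), which gave 37 of 21938 coding genes. Accessibility had been measured by ATAC-seq, in which a transposase inserts sequencing adapters into open DNA. The deposited result is a single list of 153924 accessible regions, called sites below, and 440 of these lay within 50 kb of 1 of the 37 genes.

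The cells (iMEF) carried a deletion of exon 4 in both endogenous Ash2l alleles, made with the inducible CAGG-Cre-ER transgene, and lived on a lentivirally delivered fusion of FKBP12F36V, 2 HA tags and human ASH2L, which the enzyme complexes that methylate histone H3 at lysine 4 need for their activity. The fusion is degraded when dTAG-13 is added. The series holds 10 libraries in 5 groups of 2: cells without dTAG (EtOH as the control in the study's methods) and cells given dTAG for 30 min, 4 h, 8 h or 24 h. The cells were the single clone NG3, and every library, the control included, came from cells with the deletion and the fusion. The list pools all libraries and gives each site's position and nothing else, so the treatment times could not be compared, replicate error and depth are unknown, and no test was made. Every value below is a count, a width or a distance in this list, set beside the same value over all coding genes.

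Wnt proteins are lipid-modified and act over short distances. They bind Frizzled receptors together with the co-receptors Lrp5 and Lrp6, which stabilises β-catenin and lets it activate genes through the TCF/LEF factors, while other Wnt and Frizzled pairings act on cell polarity and movement without β-catenin. Sfrp proteins resemble the ligand-binding domain of Frizzled and bind Wnt proteins outside the cell, and Dkk proteins take the co-receptors out of reach. In the embryo, fibroblasts and their mesenchymal precursors both send and receive these signals.

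The label of the cells was checked against marker genes. A site within 1 kb of a start site, called a promoter site below, was listed for 13 of 14 fibroblast markers and for 1 of 6 blood markers. Over all coding genes the share was 70.8%. Promoter sites were also listed for 5 of 8 epithelial, 5 of 6 endothelial and 6 of 6 neural markers, so a promoter site in this list does not single out fibroblast genes and is not a measure of transcription. A CpG island (defined below) was present at 8 of 14 fibroblast, 0 of 6 blood, 8 of 8 epithelial, 4 of 6 endothelial and 6 of 6 neural markers. Of all coding genes without an island only 23.8% had a promoter site, so the low blood count says little about the identity of the cells.

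Nearly all of the Wnt system had a promoter site. It was listed for 33 of the 37 genes (89.2%), against 70.8% of all coding genes: 18 of 19 ligand genes, 8 of 10 Frizzled genes, 4 of 4 Sfrp genes and 3 of 4 Dkk genes. An annotated start site lay inside a site for 29 genes (78.4%), against 65% of all coding genes. These promoters were also rich in CpG: 36 of the 37 genes (97.3%) had a CpG island at a start site, a stretch of at least 200 bp outside repeats that is rich in G, C and the CpG dinucleotide, against 70.1% of coding genes. Among genes with an island, 33 of 36 Wnt system genes (91.7%) and 90.8% of all coding genes had a promoter site, so the share was near the background once islands were taken into account. With islands of at least 500 bp and stricter composition, called long islands below, the values were 26 of 28 (92.9%) and 96.2%. The exceptions were Wnt8a, Fzd6, Fzd10 and Dkk4.

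**Figure D1:**
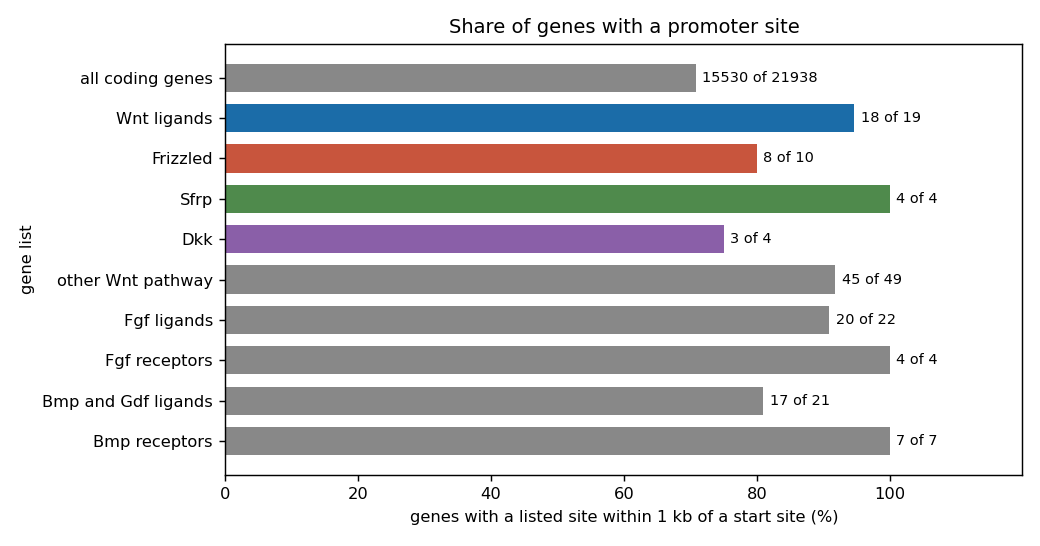
Share of genes with a listed site within 1 kb of an annotated start site, in percent, for all coding genes, the 4 classes of the Wnt system and the other gene lists; the text at each bar gives the number of genes with a site and the number in the list. The shares run from 70.8% for all coding genes to 100%, and 18 of 19 Wnt ligand genes stood beside 20 of 22 Fgf ligand genes.

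**Figure D2:**
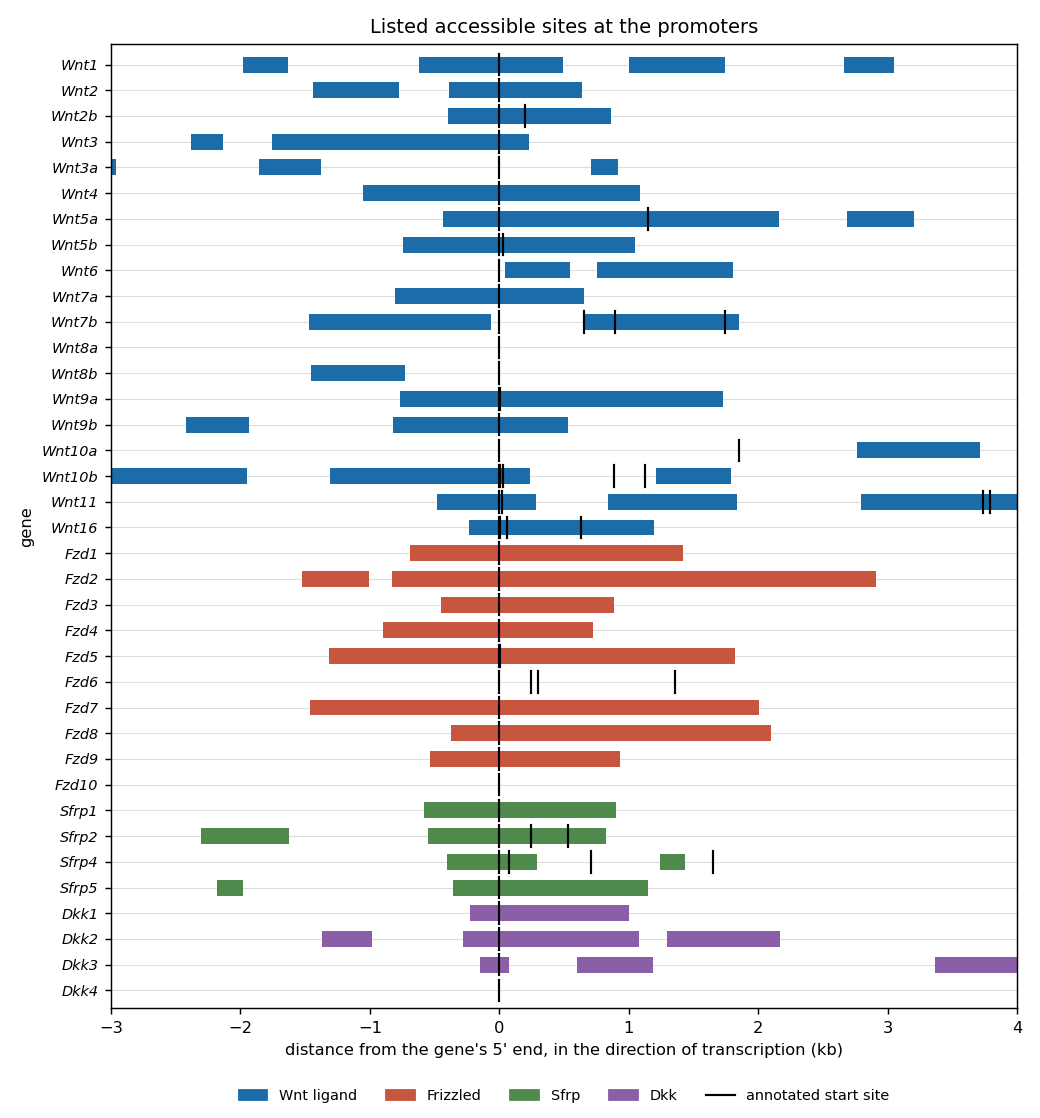
Listed sites (coloured bars, by class) drawn to scale from 3 kb upstream to 4 kb downstream of the 5′ end of each of the 37 genes, with annotated start sites as black lines. The bars of Fzd2, Fzd7 and Fzd5 are the widest, and Wnt8a, Fzd6, Fzd10 and Dkk4 show no bar in this range.

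Among the ligands, the widest promoter site belonged to Wnt5a, the ligand best known for signalling without β-catenin. Its site at chr14:28504318-28506909 (mm10) was 2592 bp wide and ran from 432 bp upstream to 2159 bp downstream of the 5′ end, over 2 annotated start sites. A second site of 1524 bp lay further inside the gene and covered the other 4, among them the start of the shorter coding transcript Wnt5a-202, 6655 bp downstream of the first. All 6 annotated start sites of Wnt5a were therefore inside a site. Wnt9a, a ligand of developing joints, had a promoter site of 2501 bp, and Wnt4, which acts in kidney and gonad development, had one of 2139 bp. Over the 18 ligand genes with a promoter site the median of the widest site was 1419.5 bp, from 209 to 2592 bp, against 1412 bp over all coding genes with a promoter site.

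Several ligand genes had more than 1 promoter site. At least 2 promoter sites were listed for 8 of the 19 ligand genes (42.1%), against 21.7% of all coding genes, 28.9% of those with an island and 8 of 22 Fgf ligand genes (36.4%), for none of the 10 Frizzled genes, for 1 Sfrp gene and for 2 Dkk genes. These sites were pooled over all annotated starts, so a gene with more starts can have more of them. Of the 8 ligand genes, Wnt5a and Wnt7b had 6 starts, Wnt10b and Wnt11 5, Wnt5b 4, Wnt6 and Wnt8b 2 and Wnt2 1. Among the other ligand genes, Wnt16 with 4 starts and Wnt7a with 3 had a single promoter site. Of the Frizzled genes only Fzd3, Fzd5 and Fzd6 had more than 1 start. The part of this in the counts was not tested. Wnt7b, a ligand of lung and kidney development, had 5 promoter sites. The 5′ end of Wnt7b lay in a gap between a site of 1410 bp that ended 64 bp upstream and a site of 1194 bp that began 657 bp downstream. The latter covered the starts of Wnt7b-202 and Wnt7b-203, and a site of 452 bp covered the start of Wnt7b-204, 4403 bp from the 5′ end. Wnt5b, a close relative of Wnt5a, had 3 promoter sites at starts that were 94961 bp apart at most: 1792 bp at the 5′ end, 936 bp at Wnt5b-202 and 259 bp at Wnt5b-201. Wnt11, which directs cell movements in the embryo, also had 3, of 763, 1000 and 1488 bp, and the widest of them lay over the inner starts of Wnt11-204 and Wnt11-205, 3786 and 3733 bp from the 5′ end.

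At Wnt3a, Wnt6, Wnt8b and Wnt10a the promoter sites lay near annotated starts but over none of them. Wnt3a, the ligand used most often to activate β-catenin in culture, had only a small site of 209 bp that began 708 bp downstream of its single start. Upstream of it the nearest site ended 1378 bp away. Wnt6 had 2 promoter sites of 505 and 1053 bp, and the first began 44 bp downstream of the main start. The 5′ end of Wnt10a, a ligand of tooth and skin appendages, lay 2764 bp from the nearest downstream site, and its promoter site of 952 bp counted only because it began 917 bp from the second annotated start. Wnt8b, a forebrain ligand, had sites 733 bp from its main start and 978 bp from a noncoding inner start. Closest to the 1 kb limit from within was a second promoter site of Dkk2, of 385 bp, which ended at position -983 from its start (negative values lie upstream). Just outside the limit lay a further site of 743 bp at Wnt1, which began at position 1001. Positions are uncertain by 1 bp, so it could also count as a promoter site. Wnt1 would then join the ligand genes with at least 2 promoter sites. Next came a site of 517 bp at Fzd2, which ended at position -1009.

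In all, 65 of the 78 annotated start sites of the 37 genes were within 1 kb of a site, and 13 were not. Besides the first start of Wnt10a and all starts of the 4 genes without a promoter site, these were the starts of transcripts not annotated as coding: Wnt6-202, 1470 bp from the nearest site, Wnt7a-202 and Wnt7a-203, 7110 and 7084 bp away, Wnt11-206, 8268 bp away, and Fzd3-201 in the receptor gene Fzd3, 17362 bp away. Wnt6, Wnt7a, Wnt11 and Fzd3 had their main coding start within 1 kb of a site.

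Wnt8a, a ligand of the early mesoderm, was the only ligand gene without a promoter site. The nearest site ended 3230 bp upstream of its single start, and a site of 1002 bp lay over a coding exon near the 3′ end. Its promoter held 19 CpG dinucleotides in the 1 kb around the 5′ end, the fewest among the ligand genes, whose counts ran from 19 to 137.

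The promoter sequences of Wnt3a and Wnt6 are shown because both are rich in CpG and yet lay outside the listed sites. They are the RefSeq promoter windows on GRCm38.p6, from 250 bases before to 50 after the RefSeq start, 5′ to 3′ on the coding strand, with each CpG in capitals. The window of Wnt3a (chr11:59290702-59291001, minus strand) held 45 CpG and 86.3% G and C, with 0 of 300 bases inside a site. The window of Wnt6 (chr1:74771642-74771941, plus strand) held 31 CpG and 76.7% G and C, and only its last 6 bases were inside a site. The median over all 32851 such windows of the mouse genome is 7 CpG.
Wnt3a: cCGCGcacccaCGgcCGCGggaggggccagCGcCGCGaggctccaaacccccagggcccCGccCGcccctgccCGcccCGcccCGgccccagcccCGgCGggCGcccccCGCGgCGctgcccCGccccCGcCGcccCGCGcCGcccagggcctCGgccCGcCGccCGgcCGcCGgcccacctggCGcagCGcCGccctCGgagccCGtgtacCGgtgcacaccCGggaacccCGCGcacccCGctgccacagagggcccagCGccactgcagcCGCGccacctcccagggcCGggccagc
Wnt6: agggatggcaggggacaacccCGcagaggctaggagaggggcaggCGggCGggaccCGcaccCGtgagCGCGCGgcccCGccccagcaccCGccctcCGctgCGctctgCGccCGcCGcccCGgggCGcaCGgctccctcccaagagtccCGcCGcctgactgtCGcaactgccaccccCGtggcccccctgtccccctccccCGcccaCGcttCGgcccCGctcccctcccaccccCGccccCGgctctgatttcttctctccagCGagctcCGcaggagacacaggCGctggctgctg

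The receptor genes had the widest promoter sites of the system. Fzd2, a receptor for Wnt5a among others, had a single site of 3734 bp at chr11:102603569-102607302. Only 12 of the 153924 listed sites were wider. The site began 827 bp upstream of the start and ended 2906 bp downstream, and it covered 79.4% of this gene of 1 exon. No other gene of the 37 was covered over more than 50% of its length, and 1.9% of all coding genes were. Such coverage was common among coding genes of 1 exon with a long island, at 46.1%.

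Fzd7, a receptor of stem and progenitor cells, followed with 3468 bp (chr1:59480963-59484430), from 1461 bp upstream to 2006 bp downstream, over 44.3% of the gene. In the whole list 35 sites were wider. Fzd5, which acts in the eye and the gut, had 3137 bp (chr1:64735930-64739066), from 1315 bp upstream to 1821 bp downstream, and 100 listed sites were wider. Fzd8 had 2469 bp and Fzd1 2114 bp, and both sites also reached further into the gene than upstream, to 2095 and 1419 bp downstream. Fzd4, which also binds the ligand norrin in retinal vessels, had 1625 bp, Fzd9 1469 bp and Fzd3, a receptor of the planar polarity pathway, 1335 bp. The middle of the Fzd4 site lay 46 bp from a start of Tmem135, so it is also a promoter site of that coding gene. It reached further upstream (899 bp) than downstream (725 bp).

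The receptor genes had wider promoter sites than the ligand genes in the median, but not more of them per gene. Over the 8 receptor genes with a promoter site the median width was 2291.5 bp, and 5 of them (62.5%) reached 2 kb, against 3 of 18 ligand genes (16.7%) and 13.9% of all coding genes with a promoter site. The ranges overlapped, from 1335 to 3734 bp for the receptors and from 209 to 2592 bp for the ligands. All 10 Frizzled genes had a long island, yet coding genes with a long island had a median of only 1513 bp, and those that also had a single exon, as 6 of the Frizzled genes do, one of 1528 bp. In the receptor genes other than Fzd4 the downstream side was the wider. Over all 8 the median was 1620 bp downstream and 760.5 bp upstream of the 5′ end. It was 650 and 742 bp in the ligand genes, and 818 and 541 bp over all coding genes. Receptor genes of the Fgf and Bmp families were wide in the median too: it was 2297 bp for 4 Fgf receptor genes and 2198 bp for 7 Bmp receptor genes, beside 1318.5 bp for the Fgf ligands and 1365 bp for the Bmp and Gdf ligands. Their ranges were broad, from 737 to 3197 bp and from 1026 to 3180 bp. The co-receptors and alternative receptors of the Wnt pathway, such as Lrp5 and Ror2, had a median of only 1639.5 bp, from 1126 to 1881 bp. Across the 33 Wnt system genes with a promoter site, the width of the widest went with the number of CpG in the 1 kb around the 5′ end (Spearman's rho 0.43), and the value over 15530 coding genes was 0.46. These are correlations across genes, which are not independent replicates.

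**Figure D3:**
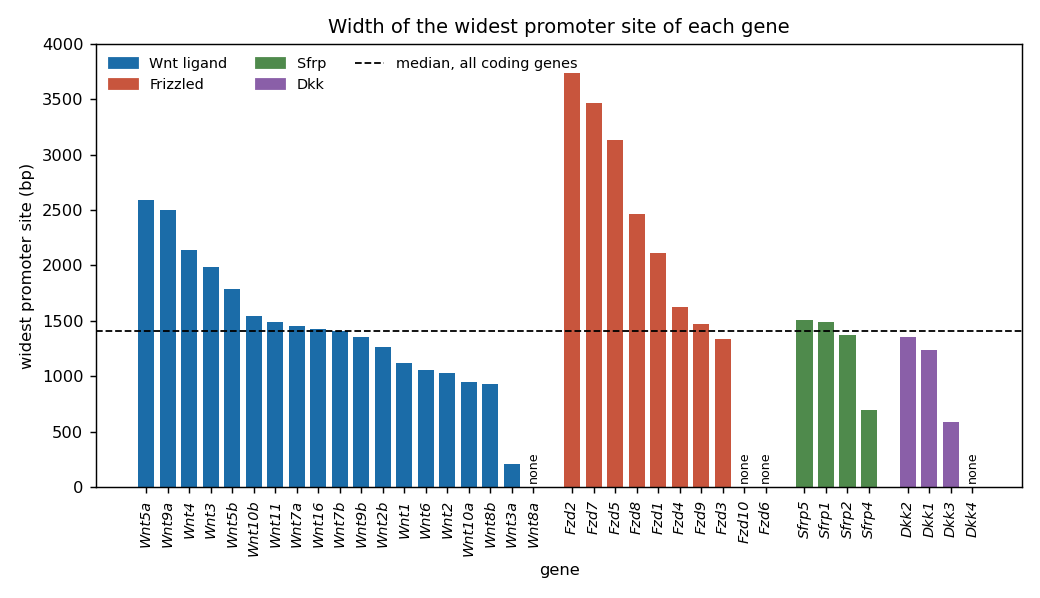
Width in bp of the widest promoter site of each gene, by class and in falling order, with the median over all coding genes that have a promoter site (1412 bp) as a dashed line; genes without a promoter site are marked none. The bars of 5 Frizzled genes and 3 Wnt ligand genes reach 2000 bp, and no Sfrp or Dkk bar does.

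Fzd6 and Fzd10 stood apart from the other receptor genes. Neither had any site within 50 kb, although both had a long island, with 71 and 95 CpG in the 1 kb around the 5′ end. Of all coding genes 9.15% had no site within 50 kb, but of those with a long island only 1.15% (120 of 10458). Fzd6, which orients hair follicles together with Fzd3, lay in a stretch of 590 kb without a site (chr15:38573105-39162882), 156849 bp from the nearest. The stretch held 5 other coding genes, Atp6v1c1, Baalc, Cthrc1, Slc25a32 and Dcaf13, and Atp6v1c1, Slc25a32 and Dcaf13 also had a long island. Fzd10, a receptor of the neural tube, lay with Piwil1 in a stretch of 402 kb without a site (chr5:128515621-128917228), and its nearest site was 85224 bp away. The list holds 1182 stretches of at least 150 kb without a site, 72 of them with at least 1 long-island gene and 14 with at least 4, the stretch of Fzd6 being 1 of these. A region without open chromatin and a region left out of the list cannot be told apart from positions alone, so nothing is said here about the accessibility of these genes.

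The promoter windows of Fzd7, Fzd5 and Fzd10 are shown to set the widest sites beside a receptor gene without one. They come from the same RefSeq table, with CpG in capitals. All 300 bases of the Fzd7 window (chr1:59481897-59482196, plus strand, 24 CpG, 66.7% G and C) and of the Fzd5 window (chr1:64737701-64738000, minus strand, 38 CpG, 75.7%) were inside a site. None of the Fzd10 window was (chr5:128600856-128601155, plus strand), although it held the most CpG of these 3 with 45, and 77.7% G and C.
Fzd7: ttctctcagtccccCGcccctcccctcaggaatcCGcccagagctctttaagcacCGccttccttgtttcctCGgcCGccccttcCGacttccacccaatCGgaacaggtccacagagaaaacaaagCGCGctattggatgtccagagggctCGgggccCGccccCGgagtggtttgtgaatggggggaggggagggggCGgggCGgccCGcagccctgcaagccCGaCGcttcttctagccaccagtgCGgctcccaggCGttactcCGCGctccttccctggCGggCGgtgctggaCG
Fzd5: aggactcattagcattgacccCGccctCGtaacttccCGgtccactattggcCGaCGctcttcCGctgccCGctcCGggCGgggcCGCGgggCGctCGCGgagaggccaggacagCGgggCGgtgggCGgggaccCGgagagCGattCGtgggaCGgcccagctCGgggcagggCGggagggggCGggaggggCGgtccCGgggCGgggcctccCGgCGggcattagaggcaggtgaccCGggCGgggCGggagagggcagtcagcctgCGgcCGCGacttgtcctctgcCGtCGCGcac
Fzd10: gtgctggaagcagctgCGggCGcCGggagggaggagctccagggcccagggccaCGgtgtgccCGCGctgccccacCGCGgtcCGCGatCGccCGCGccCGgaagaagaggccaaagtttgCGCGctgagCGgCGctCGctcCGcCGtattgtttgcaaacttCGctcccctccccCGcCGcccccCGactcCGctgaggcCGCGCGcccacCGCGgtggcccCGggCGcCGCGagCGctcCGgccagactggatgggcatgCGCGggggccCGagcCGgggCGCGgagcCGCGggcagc

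Among the genes chosen by symbol, the secreted inhibitors split by family. Frzb, also known as Sfrp3, was not caught by the symbol rule and is counted with the other pathway genes below. It had an island but no long island, and a promoter site of 1746 bp, so the split does not hold for every Sfrp relative. All 4 Sfrp genes had a long island and a site over their 5′ end, of 1512 bp at Sfrp5, 1487 bp at Sfrp1, 1374 bp at Sfrp2 and 691 bp at Sfrp4. Sfrp1 and Sfrp2 are close relatives that act together in the early embryo. The site of Sfrp2 covered all 3 of its annotated starts, whereas that of Sfrp4 covered 2 of 4, the other 2 being within 1 kb of a site. None of the Dkk genes had a long island, and their CpG counts in the 1 kb around the 5′ end ran from 17 to 36, below those of all 4 Sfrp genes, the lowest of which was 42 at Sfrp4.

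Dkk1, Dkk2 and Dkk3 nevertheless had a site over the 5′ end, of 1233, 1355 and 229 bp. Dkk1 and Dkk2 bind the Wnt co-receptors, and Dkk3 is the most divergent member of the family. At Dkk3 a wider site of 584 bp began 603 bp downstream. Dkk4 had no island and no promoter site, with 17 CpG in the 1 kb around its 5′ end and the nearest site 11299 bp upstream, at chr8:22611920-22612744. Over all coding genes without an island, 23.8% had a promoter site. The Dkk2 window of the RefSeq table is shown as a covered promoter with few CpG (chr3:132085042-132085341, plus strand): it held 11 CpG and 57.7% G and C, and all 300 bases were inside a site.
Dkk2: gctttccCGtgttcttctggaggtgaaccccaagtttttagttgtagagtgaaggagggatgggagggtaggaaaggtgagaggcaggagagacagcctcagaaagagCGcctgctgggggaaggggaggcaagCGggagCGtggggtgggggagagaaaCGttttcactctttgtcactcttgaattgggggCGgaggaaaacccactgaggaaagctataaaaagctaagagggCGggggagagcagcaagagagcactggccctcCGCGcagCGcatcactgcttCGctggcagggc

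Beyond the promoters, the neighbourhoods of these genes held slightly more sites than those of coding genes in general. The number of sites from 50 kb before the 5′ end to 50 kb past the 3′ end had a median of 14 (0 to 26), against 12 over all coding genes with quartiles of 6 and 16. Since genes differ in length, the density is given as well: the median was 11.4 sites per 100 kb, against 8.66 with quartiles of 4.79 and 12.1, and sites covered a median of 9.9% and 6.68% of the bases. By density the median gene of the system lay inside the middle 50% of coding genes, and by covered bases it lay just above, at percentile 76.1 of all coding genes. Coding genes with an island were closer to the system, with medians of 13 sites, 9.79 sites per 100 kb and 7.72% of the bases. Those with a long island had medians of 14 sites, 10 sites per 100 kb and 7.96%. By class the median density was 12.7 for the ligands, 9.06 for the receptors, 13.1 for Sfrp and 9.51 for Dkk.

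The most sites were found around Wnt5b (26) and Wnt7b (24), followed by Wnt1, Wnt3a, Wnt10b, Dkk2 and Dkk3 with 22 each. At Wnt5b 18 of the 26 lay in the gene, which is 111817 bp long, and the widest of the inner sites was 2620 bp, in an intron at chr6:119478567-119481186, where it is the promoter site of another coding gene, Fbxl14. Wnt7b had 12, Dkk2 11 and Dkk3 11 sites in the gene. By density Wnt1 and Wnt10b led with 21.2 and 20.5 sites per 100 kb, at or above 98.8% of coding genes. Only 3 sites closest to Wnt1 and 1 closest to Wnt10b lay more than 1 kb from every annotated start site, and 6 and 5 of their sites were promoter sites of neighbouring genes.

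The fewest sites, after Fzd6 and Fzd10, were around Fzd8 with 4, then Dkk1 with 6 and Wnt2 with 7. Fzd8 therefore combined a promoter site of 2469 bp with 3.77 sites per 100 kb. Fzd7, with a promoter site of similar kind, had 15 sites or 14.3 per 100 kb.

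**Figure D4:**
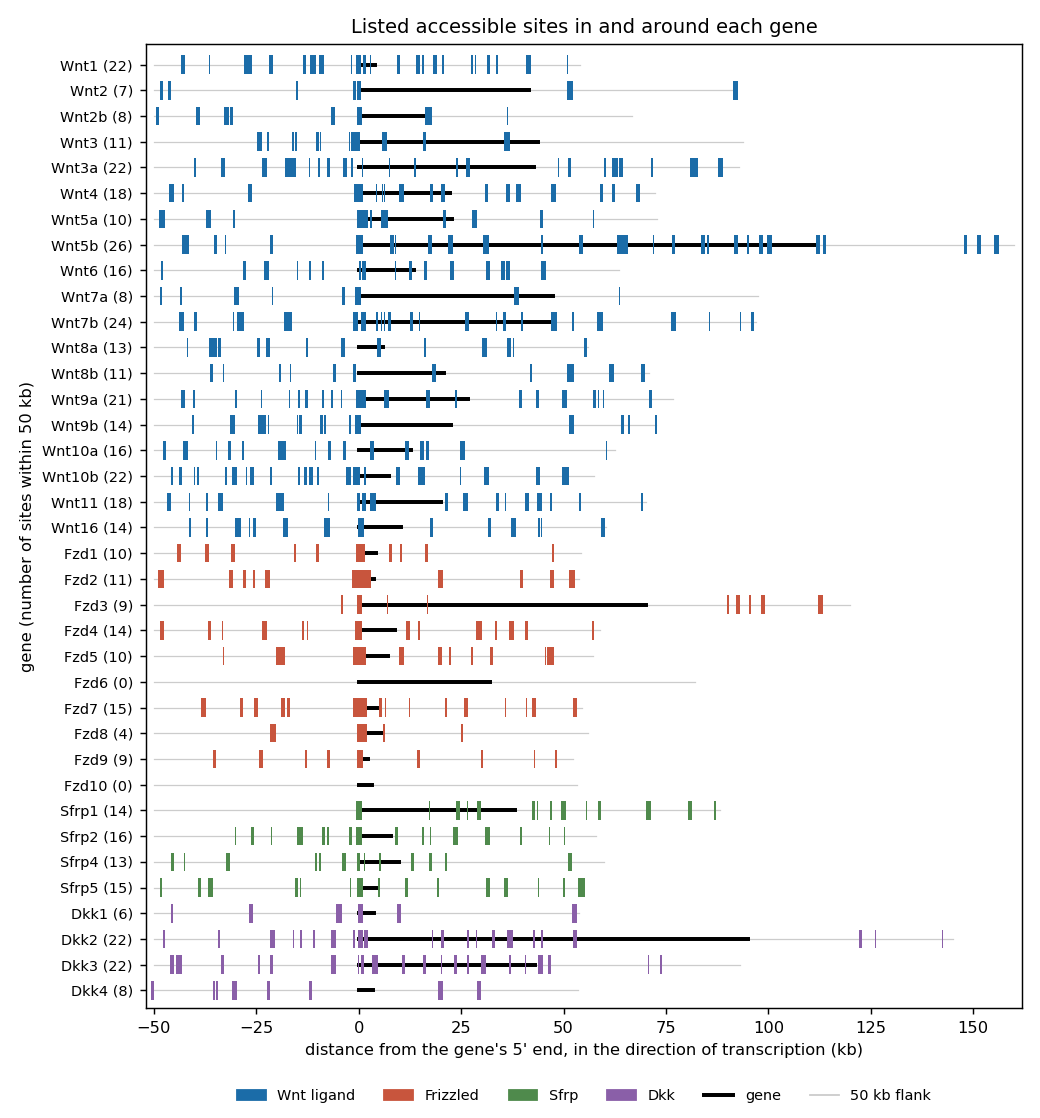
Listed sites (coloured bars, by class) in and around each gene, with the gene as a thick black line, the 50 kb flanks as grey lines and the number of sites in brackets; the horizontal axis is the distance from the 5′ end in kb in the direction of transcription. Wnt5b, Wnt7b, Dkk2 and Dkk3 carry chains of sites along the gene, and Fzd6 and Fzd10 carry none.

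Several kinds were counted among the 440 sites. They overlap in part, and some of the 440 belong to none of them. For 275 of the 440 the nearest coding start was that of 1 of the 37 genes. At the 37 genes 49 were promoter sites, with a median width of 1261 bp against 1180.5 bp over the 20938 promoter sites of all coding genes. A further 76 lay in the bodies of the genes, with a median of 736.5 bp, and 65 of these had their middle in an intron and 5 in a coding exon. Of the 76, 68 are also among the distal sites defined next, and 1 is the promoter site of another coding gene. Promoter sites of other coding genes made up 36. More than 1 kb from every annotated start site, those of noncoding genes included, and closest to the start of 1 of the 37 genes were 217 sites, called distal sites below, with a median width of 685 bp against 565 bp over all 127255 distal sites of the list. Dkk2 had 20 of the 217, Wnt5b 14, and Wnt4, Wnt11 and Sfrp1 13 each, whereas Fzd2, for all the width of its promoter site, had 1.

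Neighbouring ligand genes shared many of these sites. In the mouse genome Wnt1 and Wnt10b, Wnt3 and Wnt9b, Wnt3a and Wnt9a, and Wnt6 and Wnt10a are adjacent pairs that go back to early duplications. Within 50 kb of both genes lay 20 sites at Wnt1 and Wnt10b, 15 at Wnt6 and Wnt10a, 14 at Wnt3a and Wnt9a and 10 at Wnt3 and Wnt9b. Between the genes of each pair lay 4 sites in 11706 bp, 1 in 6193 bp, 6 in 16175 bp and 8 in 24328 bp, in the same order. In all 59 of the 440 sites were within 50 kb of more than 1 of the 37 genes, so the counts of paired genes are not independent of each other. Within a pair the promoters could differ, as for Wnt3a with 209 bp and Wnt9a with 2501 bp.

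Because TCF/LEF factors carry the Wnt signal to DNA and some inhibitor genes, Dkk1 among them, are known targets, the distal sites were searched for the TCF/LEF words CTTTGATG, CTTTGATC, CTTTGAAG and CTTTGAAC on both strands. At least 1 word was found in 31 of the 217 distal sites (14.3%, Wilson 95% interval 10.3 to 19.6%, for counting error only), against 11% of all distal sites. Per length the values were 2.07 and 1.86 matches per 10 kb, and the interval holds the background. The AP-1 words TGAGTCA and TGACTCA, which are each other's reverse complement, were found in 67 sites (30.9%), against 31% of all distal sites. The TEAD words CATTCCA and CATTCCT were found in 31.8% against 31.1%, and the CTCF consensus in 17 sites (7.83%, interval 4.95 to 12.2%) against 4.6%. The CTCF interval lies above its background. In the middle 200 bp of each site it holds the background (3.69%, interval 1.88 to 7.1%, against 3.06%). Per 10 kb the matches were 4.64 against 5.85 for AP-1, 5.45 against 6.23 for TEAD and 1.07 against 0.727 for CTCF. No word contains another, and a match is a description of the sequence and not a bound factor.

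The 31 sites with a TCF/LEF word were spread over 19 of the genes. Wnt11 and Dkk2 had 4 each and Wnt4 had 3, while the 14 distal sites of Wnt5b had none. The sites of Dkk1, Sfrp2 and Dkk4 are shown as examples from the inhibitors, and the intronic site of Dkk2 because it was 1 of 2 with a pair of words, the other being at Wnt4. Each line gives 30 bases of mm10 with the word in capitals, on the strand that carries it. Positions are counted from the gene's 5′ end, with negative values upstream: -4813 for Dkk1, -14198 for Sfrp2, -11399 for Dkk4, and 37521 and 37615 for Dkk2. The site of Dkk1 lies at chr19:30553861-30555132, that of Sfrp2 at chr3:83751193-83752784, that of Dkk4 at chr8:22611920-22612744 and that of Dkk2 at chr3:132121430-132123048.
Dkk1: gcttaaagactCTTTGATGagagaagatca
Sfrp2: atttgatgccaCTTTGATGtgttctgtcaa
Dkk4: gagggagtttaCTTTGAACtcgttagagat
Dkk2, first word: ttttaccctctCTTTGATGtctagggacca
Dkk2, second word: atatgaaacccCTTTGATCttagagttcta

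The promoter sites of the 37 genes were searched for the same words and for EGR words, on small counts. No test was made of the difference from the 20938 promoter sites of all coding genes. TCF/LEF words were found in 5 of 49 (10.2%) against 13.4%, and AP-1 words in 7 (14.3%) against 20.2%. TEAD words were found in 8 (16.3%) against 29.2%. The CTCF consensus was found in 1 (2.04%) against 3.54%. The EGR words GCGTGGGCG and GCGGGGGCG, which fit CpG-rich sequence, were found in 7 (14.3%) against 11.6%. In the distal sites the EGR words were found in 0 of 217, against 0.293% of all distal sites.

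The rest of the pathway had promoter sites to a similar extent. Of 49 other Wnt pathway genes 45 (91.8%) had a promoter site, with a median width of the widest of 1618 bp. Over all coding genes the share was 70.8%. Among genes with an island it was 44 of 46 (95.7%) for these pathway genes and 90.8% for all coding genes. The lists named next overlap: the feedback targets Lgr5, Znrf3 and Rnf43 also belong to the R-spondin branch, and Notum to the secreted modulators. Among them were 6 of 6 co-receptors and alternative receptors such as Lrp5, Lrp6 and Ror2, the secretion genes Porcn and Wls, 9 of 9 genes of the R-spondin branch, which controls the turnover of Frizzled receptors, 18 of 18 genes of signal transduction such as Ctnnb1, which encodes β-catenin, and 8 of 8 feedback targets such as Axin2. All 4 genes without a promoter site were secreted or receptor-binding modulators, of which 6 of 10 had one: Sost, an inhibitor made by bone cells, Cer1, an inhibitor of the early embryo, Dkkl1, a relative of the Dkk genes, and Kremen2, a receptor for Dkk proteins. For comparison, promoter sites were listed for 20 of 22 Fgf ligands (90.9%), 4 of 4 Fgf receptors, 17 of 21 Bmp and Gdf ligands (81%) and 7 of 7 Bmp receptors.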

How the data were processed

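ATAC-seq libraries of immortalized mouse embryo fibroblasts were made by the authors, who used Trim Galore for trimming, BWA for alignment to mm10, Picard for joining replicates and MACS for narrow peaks (MACS2 in the submitters' processing notes), in modified nf-core code. Versions, peak threshold, transposase shift, region filters and the joining of peaks into 1 list are not given in the sources used here. Any site lost by such a filter is missing here too, and joining nearby peaks would widen sites. The deposited values are positions (chromosome, start and end) for the pool of 10 libraries, with no counts, scores or depth. Of the 153924 sites, 242 lay on sequences other than chromosomes and 0 ended beyond their chromosome. They were read as 0-based and half-open and are printed 1-based, which leaves an uncertainty of 1 bp. The protocol in the labels describes ChIP, and the ATAC protocol was taken from the study's methods.

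Genes and start sites came from GENCODE M21 on GRCm38.p6. A promoter site overlapped the 1 kb on either side of any annotated start by at least 1 bp. CpG islands were computed as windows of 200 bp outside soft-masked repeats with GC over 0.5 and more than 0.6 of the CpG expected from the base content, and long islands with 500 bp, 0.55 and 0.65. The RefSeq promoter table held 25 of the 37 genes. Scripts ran under Python 3.11.15 with Matplotlib 3.10.9, Numba 0.67.0, SciPy 1.17.1 and NumPy 2.4.6. Tested on simulated data, the scripts recovered 200 of 200 planted promoter sites, 500 of 500 motif words and 50 of 50 islands. Described singly are genes without a promoter site, the 3 with the widest promoter site, those with the most or fewest sites within 50 kb, with only part of their start sites in reach of a site, or covered over more than 50% of their length. The genes, lists and this rule were chosen with earlier results of these data known, and the examples of motif matches and the other genes named after their values were seen.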

Additional observations from a re-analysis of the deposited data

How the results depend on the processing

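Of 34 alternative values, 31 stayed near the value reported, which for counts meant a change by a factor of at most 1.5. This limit is loose for small lists: a change from 3 to 2 Dkk genes with a promoter site, or from 36 to 28 genes with an island, stayed within it. The number of genes with a promoter site was 33, and it was 30 with a window of 500 bp (without Wnt3a, Wnt8b and Wnt10a) or with the middle of the site in the window (without Wnt8b, Wnt10a and Fzd2). It was 31 with sites under the median width of the list removed (without Wnt3a and Dkk3), and 32 with only the outermost or RefSeq starts (without Wnt10a). The share over all coding genes then ran from 65.5% to 76.4%. The median promoter site width moved from 1261 to 936 bp with a window of 3 kb, which takes in more sites. The median number of sites within 50 kb moved from 14 to 8 with wide sites only, since fewer sites were counted. The share of distal sites with a TCF/LEF word moved from 14.3% to 3.23% when only the middle 200 bp were searched, where it was 3.32% over all distal sites. No paired analysis was possible because libraries have no values of their own here, and for the same reason none could be left out. A gene absent from the list cannot be told apart from one that a filter removed.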

Other observations

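As a share of whole distal sites the AP-1 words were at the background. Per length they were below it, with 4.64 matches per 10 kb against 5.85 over all distal sites. In the middle 200 bp of the sites AP-1 words were found in 24 of the 217 near the Wnt system genes (11.1%, Wilson 95% interval 7.55 to 15.9%), against 16.3% of all distal sites. The interval lies below this share, and the difference was not tested. Among the genes, 8 of the 20 distal sites of Dkk2, 8 of the 14 of Wnt5b and 6 of the 13 of Sfrp1 held an AP-1 word anywhere, while 2 of the 13 of Wnt11 did. In the middle 200 bp TEAD words were found in 13.8% and 13.6%, and the CTCF consensus in 3.69% and 3.06%. Genes differ in the width and number of their distal sites, and the part of these in the values was not tested.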
